A study of Mus musculus with 31 samples.

Results

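The complement genes described here are C1qa, C1qb, C1qc, C2, C4b, C3, Cfb, C3ar1 and Serping1, taken by symbol from a table of 15648 genes, and all 9 were measured. RNA of the left hippocampus was sequenced in 31 adult OT-I/Rag-/- mice (Rag1 in the study's methods), whose T cells carry a receptor for a peptide of ovalbumin and which lack other mature T cells and all B cells. Each mouse had received into dorsal CA1 of both sides a recombinant adeno-associated virus carrying ovalbumin and mCherry (rAAV-OVA) or mCherry alone (rAAV-control), both driven by the neuronal human synapsin promoter (hSyn), and ketoprofen was given to all groups. Mice were examined at 2, 5, 8 and 28 days, with 4 mice in each group except for 3 rAAV-control mice at 8 days. Batch 1 held the mice of 5 and 8 days, and the groups of 2 and 28 days were split evenly, with 2 mice from batch 1 and 2 from batch 2. The mice are a model of CD8+ T cell attack on hippocampal neurons, with the antigen placed in neurons near the injection.

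Complement is a protease cascade of serum proteins that brain cells also make. The classical pathway starts when C1q, built of the chains encoded by C1qa, C1qb and C1qc, binds its target and switches on the proteases C1r and C1s, which cleave C4 and C2 into a C3 convertase. The alternative pathway builds another C3 convertase from C3 itself and factor B, encoded by Cfb, and Serping1 encodes the C1 inhibitor, which blocks C1r and C1s. In the brain C1q is made mainly by microglia, reactive astrocytes can express C3 and C4, and C1q and C3 fragments tag synapses for removal by microglia.

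C1qa, C1qb and C1qc are neighbours on chromosome 4, and C2, Cfb and C4b lie in the major histocompatibility complex on chromosome 17, and C3 lies on the same chromosome outside that complex, in the GENCODE M21 annotation. C4b has a near-identical copy, C4a, which is not a row of the table, so reads that fit both genes are shared out by the quantification and the C4b values are uncertain to that degree. A read-through gene model, Gm20547, overlaps Cfb and C2 and is not a row of the table either. The RefSeq promoter table (build GRCm38.p6) held 4 of the 9 members, and these sequences are printed because the members moved together. Each runs from 250 bases before the start site to 50 bases from it on, 5′ to 3′ on the minus strand, at chr4:136886151-136886450 for C1qb, chr4:136892865-136893164 for C1qc, chr17:57228087-57228386 for C3 and chr6:122856108-122856407 for C3ar1. Capitals mark a match to the NF-κB motif.
C1qb: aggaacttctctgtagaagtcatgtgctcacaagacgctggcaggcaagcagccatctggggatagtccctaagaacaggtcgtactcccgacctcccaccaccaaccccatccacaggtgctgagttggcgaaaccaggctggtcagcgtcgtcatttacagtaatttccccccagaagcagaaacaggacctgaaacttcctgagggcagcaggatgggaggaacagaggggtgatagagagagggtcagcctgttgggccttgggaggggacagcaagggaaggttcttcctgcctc
C1qc: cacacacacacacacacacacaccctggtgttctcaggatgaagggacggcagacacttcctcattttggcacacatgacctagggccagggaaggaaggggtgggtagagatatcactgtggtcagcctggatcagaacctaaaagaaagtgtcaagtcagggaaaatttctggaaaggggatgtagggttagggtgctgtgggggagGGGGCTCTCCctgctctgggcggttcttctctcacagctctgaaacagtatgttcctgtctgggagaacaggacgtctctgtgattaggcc
C3: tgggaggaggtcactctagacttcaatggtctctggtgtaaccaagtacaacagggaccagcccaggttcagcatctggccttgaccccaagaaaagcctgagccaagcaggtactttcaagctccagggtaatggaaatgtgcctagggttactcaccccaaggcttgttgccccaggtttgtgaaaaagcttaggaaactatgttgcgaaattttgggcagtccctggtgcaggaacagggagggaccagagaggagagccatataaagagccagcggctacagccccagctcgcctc
C3ar1: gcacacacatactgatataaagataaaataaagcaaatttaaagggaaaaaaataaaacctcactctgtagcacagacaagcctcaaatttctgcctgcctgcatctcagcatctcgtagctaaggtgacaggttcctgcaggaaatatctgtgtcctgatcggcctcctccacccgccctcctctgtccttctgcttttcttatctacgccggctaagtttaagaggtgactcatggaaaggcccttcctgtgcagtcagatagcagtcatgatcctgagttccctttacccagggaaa

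The sequences were searched on both strands for the STAT motif TTCNNNGAA, the interferon response half-motif GAAANNGAA and the NF-κB motif. Of all 32851 promoters of the table, 8.30% held the first, 8.56% the second and 8.46% the third. Among the 4 members, the C1qc promoter held 1 NF-κB match, starting 41 bases before the start site (position -41), and no other match of the 3 motifs was found in these windows.

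Counts per mouse summed to 19046977 to 57407902 with a median of 27024978, and the deepest library, rAAV-control mouse D755 at 5 days, was the only 1 above 32698495. Levels are given as CPM, the count relative to library size as scaled by the trimmed mean of M values (TMM), and Log2FC is the log2 difference of rAAV-OVA minus rAAV-control mice with its standard error (SE). A gene was called increased at a false discovery rate (FDR) of at most 0.05, from edgeR's quasi-likelihood test over all genes with Benjamini-Hochberg adjustment, and a Log2FC of at least 0.66. The fit held 2 surrogate variables, covariates estimated from the data to capture variation beyond the group differences. They were not independent of the groups. The first was -0.263 to -0.039 in rAAV-OVA mice at 5 days and 0.062 to 0.142 in rAAV-control mice at 28 days. It was -0.293 in rAAV-control mouse D720 of 8 days and 0.167 in rAAV-OVA mouse D844 of 28 days. The 2 surrogate variables took up 20.5% (C3ar1) to 46.1% (Serping1) of the members' spread within groups, against a median of 28.75% over all genes. Values without them are therefore given where the call of a member or of another complement gene named turns on them. Pairs of mice of a group differed by more than sampling noise in every group. Several mice stood apart. In rAAV-control mouse D720 at 8 days C1qa was 404.5 CPM and Cd8a, a chain of the CD8 co-receptor of cytotoxic T cells, was 9.73 CPM, against 50.7 and 98.5 CPM of C1qa and 1.09 and 0.517 CPM of Cd8a in the others of its group. In rAAV-OVA mouse D844 at 28 days Cd8a was 6.28 CPM, against 79.1 to 171 CPM in the others of its group. Cd8a in D720 was nevertheless below the 52.0 to 163 CPM of the rAAV-OVA mice at 8 days, and in D844 above the rAAV-control mice at 28 days, which reached at most 0.346 CPM. Both mice were kept in their labelled groups, and their labels could not be checked further here. The Y-linked gene Ddx3y was at 0.127 CPM in rAAV-control mouse D743 at 2 days and at 27.5 to 43.3 CPM in all others.

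At 2 days none of the 9 members was called increased or decreased by edgeR or by DESeq2. Of all genes 0% were called increased by edgeR, and the share called decreased was not counted. An unadjusted p under 0.05 was found in 2 members, a share not counted over all genes. Those were C3, the central protein of the cascade, and C3ar1, the receptor of its fragment C3a, and both were lower in rAAV-OVA mice. C3 was 22.5, 15.4, 31.4 and 28.9 CPM in rAAV-OVA mice and 116, 353, 31.2 and 81.0 CPM in rAAV-control mice. The groups overlapped by a small margin, and the highest value was that of mouse D743. The Log2FC of C3 was -2.37 (SE 0.89, FDR 0.44). C3ar1 was 11.9, 5.85, 19.9 and 9.77 CPM in rAAV-OVA mice and 26.9, 70.7, 19.5 and 27.3 CPM in rAAV-control mice, a Log2FC of -1.45 (SE 0.55, FDR 0.45). Cfb differed in the same direction (-1.43, SE 0.71, FDR 0.56). Without mouse D743 the 3 values were -1.42 for C3, -0.96 for C3ar1 and -0.64 for Cfb. The differences lay mostly in batch 1, where C3 differed by -3.44, Cfb by -2.45 and C3ar1 by -2.38 on the log2 CPM scale, against -0.74, 0.02 and -0.72 in batch 2. S100a8, the only measured gene of 6 neutrophil markers, was 9.93 and 28.3 CPM in the rAAV-control mice of batch 1 and at most 1.47 CPM in the rAAV-OVA mice at 2 days, and the 8 reactive astrocyte genes summed to 1560 to 1819 CPM in rAAV-OVA mice and 1858 to 5693 CPM in rAAV-control mice. The 7 myeloid genes summed to 323 to 364 and 390.1 to 578.5 CPM, and none of these marker genes was called at 2 days. Their part in the member values was not tested.

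At 5 days 8 of the 9 members were increased in rAAV-OVA mice, and 9.56% of all genes were. In all 9 members every rAAV-OVA mouse was above every rAAV-control mouse, which was so for 21% of all genes. The members' median Log2FC was 1.92, against -0.01 over all genes.

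The 3 chains of C1q, which recognizes the target, were each increased at 5 days. C1qa was 366, 365, 360.1 and 376 CPM in rAAV-OVA mice and 61.8, 77.7, 96.9 and 168 CPM in rAAV-control mice at 5 days. The rAAV-OVA mice lay within a narrow band, and the highest rAAV-control value was that of the deepest library. The Log2FC of C1qa was 1.18 (SE 0.44, FDR 0.045), and it was 1.86 (SE 0.47, FDR 0.0035) without surrogate variables. C1qb ranged over 338 to 361 and 60.8 to 159.7 CPM in rAAV-OVA and rAAV-control mice (Log2FC 1.20, SE 0.41, FDR 0.031), and C1qc over 308 to 332 and 53.7 to 149.9 CPM (1.19, SE 0.42, FDR 0.034). The C1qa call was lost in 17 of 31 fits that left out 1 mouse each, and those of C1qb and C1qc in 4 and 5 of them. Leaving out rAAV-control mouse D723 or D724, or rAAV-OVA mouse D726 or D786, brought the count of members increased at 5 days from 8 to 4, and leaving out rAAV-control mouse D851 of 28 days brought it to 5.

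The next proteins of the classical pathway were also increased. C4b, the mouse C4, was 564, 467.5, 556 and 618 CPM in rAAV-OVA mice and 54.4, 102, 63.2 and 156 CPM in rAAV-control mice at 5 days, a Log2FC of 1.92 (SE 0.55, FDR 0.011). C2, the protease subunit of the classical C3 convertase, was 13.3, 10.6, 13.5 and 12.3 CPM against 1.30, 2.08, 1.93 and 1.51 CPM (2.28, SE 0.52, FDR 0.0021). Neither gene's groups overlapped. Serping1, the inhibitor of the C1 proteases, was 161, 109, 141 and 129 CPM in rAAV-OVA mice and 7.92, 18.6, 11.7 and 13.7 CPM in rAAV-control mice, a Log2FC of 2.58 (SE 0.51, FDR 0.00060).

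Cfb showed the largest Log2FC of the 9 members at 5 days. It was 247, 161, 293 and 173 CPM in rAAV-OVA mice and 0.671, 4.93, 1.56 and 1.36 CPM in rAAV-control mice, a Log2FC of 5.63 (SE 0.85, FDR 6.4e-05). Without surrogate variables it was 6.69, and the ratio of the 2 mean CPM was 103. C3 was 229, 255, 285 and 171 CPM in rAAV-OVA mice and 5.504, 18.8, 14.5 and 55.7 CPM in rAAV-control mice. Its groups did not overlap, yet C3 was the member not called, with a Log2FC of 2.10 (SE 0.99, FDR 0.11). Without surrogate variables it passed (3.30, SE 0.98, FDR 0.011), as it did without rAAV-control mouse D755 and in fits lacking rAAV-control mouse D720 or D705 or rAAV-OVA mouse D845. C3ar1 was 45.0, 40.5, 34.7 and 25.5 CPM in rAAV-OVA mice against 2.19, 5.26, 4.82 and 13.5 CPM (1.81, SE 0.63, FDR 0.032), and its call was lost in 9 of the 31 fits.

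**Figure D1:**
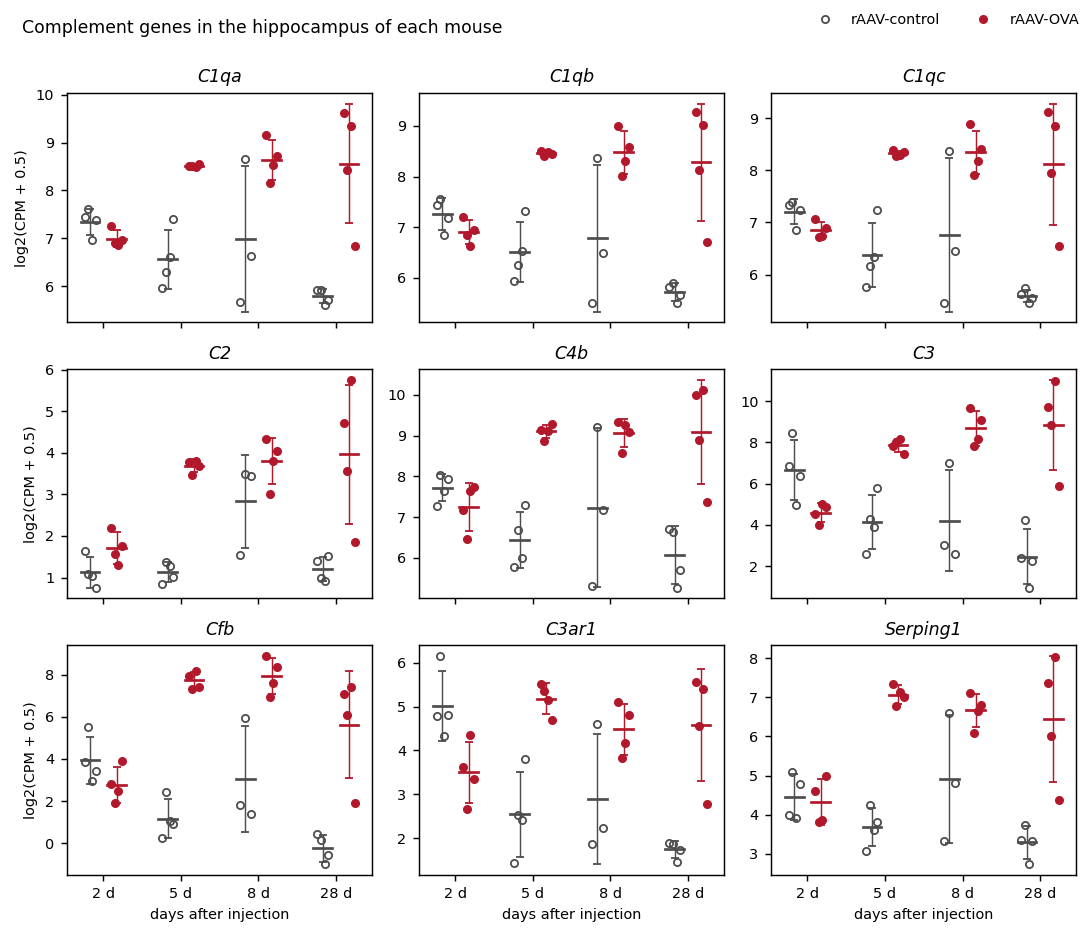
Level of each member in each mouse as log2(CPM + 0.5) on the vertical axis, by days after injection. Open grey circles are rAAV-control mice, filled red circles rAAV-OVA mice, horizontal lines the means and whiskers the SD; at 5 days the groups do not overlap in any panel, whereas at 8 days 1 rAAV-control mouse (D720, C1qa 404.5 CPM) sits among the rAAV-OVA mice in most panels.

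At 8 days 6 of the 9 members were called increased, against 9.36% of all genes, and in 2 of the 9 every rAAV-OVA mouse was above every rAAV-control mouse (14.4% of all genes). Those were C3 and Cfb. C3 was 809, 224, 285 and 548 CPM in rAAV-OVA mice and 7.56, 129 and 5.57 CPM in rAAV-control mice (Log2FC 3.73, SE 1.075, FDR 0.018). Cfb was 477, 122.5, 197 and 334 CPM against 3.01, 61.2 and 2.15 CPM (4.39, SE 0.86, FDR 0.0012). The highest rAAV-control value of each was that of mouse D720.

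C1qa was 566, 285, 367 and 422 CPM in rAAV-OVA mice and 50.7, 404.5 and 98.5 CPM in rAAV-control mice at 8 days, so the groups overlapped through mouse D720. The Log2FC of C1qa was 1.31 (SE 0.45, FDR 0.043), that of C1qb 1.37 (SE 0.42, FDR 0.027) and that of C1qc 1.28 (SE 0.43, FDR 0.039). Serping1 was 137, 67.7, 100.4 and 111 CPM against 9.52, 96.1 and 27.5 CPM (1.58, SE 0.51, FDR 0.035). Without surrogate variables these 4 genes had FDRs of 0.13, 0.087, 0.12 and 0.17, and the count of members increased fell from 6 to 2. In the 31 fits that left out 1 mouse each their calls were lost in 21, 8, 13 and 10. The C3 call at 8 days was lost in 6 of these fits and the Cfb call in none.

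C4b, C3ar1 and C2 were not called at 8 days. C4b was 649, 380.5, 612 and 545 CPM in rAAV-OVA mice and 39.5, 590.4 and 145 CPM in rAAV-control mice (Log2FC 1.59, SE 0.57, FDR 0.054), and C3ar1 was 34.1, 13.6, 17.55 and 27.5 CPM against 3.13, 23.6 and 4.18 CPM (1.43, SE 0.63, FDR 0.11). Mouse D720 again lay among the rAAV-OVA mice. C2 was 19.7, 7.62, 13.5 and 16.02 CPM against 2.42, 10.8 and 10.5 CPM (0.74, SE 0.50, FDR 0.30), with 2 of 3 rAAV-control mice inside the rAAV-OVA range.

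The count of members increased at 8 days rested on single mice. Without mouse D720 it was 8, with a Log2FC of 2.21 for C1qa (FDR 0.0023), 2.60 for C4b (FDR 0.0044), 2.54 for C3ar1 (FDR 0.020) and 0.76 for C2 (FDR 0.38). It was 1 without rAAV-control mouse D696 or D722, without rAAV-OVA mouse D700, and without rAAV-OVA mice D684 or BEC-B541 of 2 days or D845 of 28 days, and 2 without rAAV-OVA mouse D701 or D702. The mice of 8 days fitted alone gave 0 calls.

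At 28 days all 9 members were increased, against 12.7% of all genes, and in all 9 every rAAV-OVA mouse was above every rAAV-control mouse (15% of all genes). The members' median Log2FC was 2.59, against 0.01 over all genes, and 3.35 without surrogate variables, where C1qa gave 3.10, C3 6.88 and Cfb 7.84. All 9 calls held in each of the 31 fits that left out 1 mouse and in the fit of batch 1 alone. In batch 2 alone, with 2 mice a group, none passed (FDR 0.37 for each). Within batches the difference in log2 CPM ran from 3.04 (C1qc) to 9.47 (Cfb) in batch 1 and from 2.01 (C1qb) to 5.17 (C3) in batch 2.

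C3 was 834, 460.1, 2035 and 57.7 CPM in rAAV-OVA mice and 4.85, 18.25, 1.43 and 4.35 CPM in rAAV-control mice at 28 days, a Log2FC of 5.59 (SE 1.09, FDR 0.00077). Cfb was 136, 67.85, 172 and 3.21 CPM in rAAV-OVA mice against 0.847, 0.6015, 0 and 0.183 CPM in rAAV-control mice, where it rested on 22, 15, 0 and 4 counts (5.93, SE 1.06, FDR 0.00043). Per mouse the rAAV-OVA values of both genes spread widely, and the lowest were those of mouse D844, in which C3 was 0.05 and Cfb 0.03 times the mean of the other 3. The highest C3, 2035 CPM, was that of mouse D845, in which fibroblast and meningeal markers (7 genes) summed to 764.9 CPM, against 53.45 to 188.7 CPM in all other mice. Its choroid plexus markers (6 genes) summed to 5258 CPM, but these ranged from 34.5 to 5111 CPM in the other mice and reached 4264 CPM in rAAV-control mice at 28 days. The part of these tissues in the C3 value was not tested.

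C1qa was 783, 345, 653 and 115 CPM in rAAV-OVA mice and 60.1, 59.75, 48.5 and 52.3 CPM in rAAV-control mice at 28 days (Log2FC 2.29, SE 0.45, FDR 0.00077). C1qb and C1qc gave 2.07 (SE 0.42, FDR 0.00093) and 2.05 (SE 0.42, FDR 0.0011). C4b was 1016, 473, 1109 and 164 CPM against 105, 98.6, 37.9 and 52.0 CPM (2.42, SE 0.56, FDR 0.0025). Mouse D844 was again the lowest rAAV-OVA mouse, yet above every rAAV-control mouse. C2 was 25.6, 11.3, 53.6 and 3.10 CPM against 2.12, 1.48, 1.39 and 2.38 CPM (2.81, SE 0.55, FDR 0.00076). Serping1 was 163, 64.15, 260.3 and 20.2 CPM against 9.82, 12.9, 6.18 and 9.52 CPM (2.66, SE 0.52, FDR 0.00080). C3ar1 was 46.8, 22.9, 41.6 and 6.38 CPM against 3.23, 3.17, 2.27 and 2.84 CPM (2.59, SE 0.66, FDR 0.0052). In the 9 members D844 lay at 0.03 to 0.22 times the mean of the other rAAV-OVA mice.

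**Figure D2:**
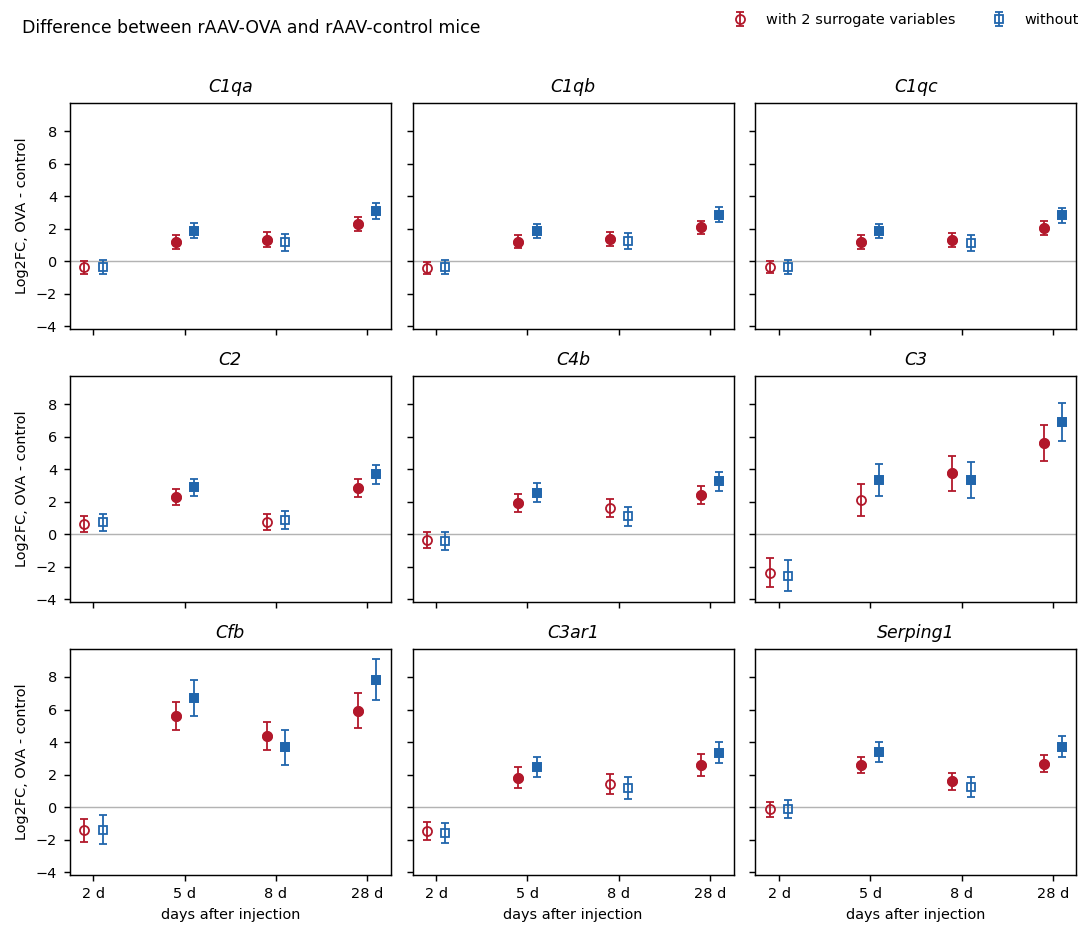
Log2FC of rAAV-OVA minus rAAV-control mice on the vertical axis for each member, by days after injection, with 2 surrogate variables (red circles) and without (blue squares). Whiskers are the SE and filled symbols passed FDR 0.05 and Log2FC 0.66; C3 at 5 days is open with and filled without surrogate variables (2.10 and 3.30), and 4 members at 8 days are filled only with them.

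Whether the response differed between days was tested as the difference of the Log2FC values. Between 2 and 5 days it differed in 6 of 9 members, against 14.3% of all genes. The difference was 7.05 (SE 1.11, FDR 0.00026) for Cfb, 4.47 (SE 1.38, FDR 0.024) for C3, 3.26 (SE 0.86, FDR 0.0097) for C3ar1, 2.71 (SE 0.68, FDR 0.0071) for Serping1, 2.28 (SE 0.74, FDR 0.031) for C4b and 1.61 (SE 0.56, FDR 0.042) for C1qb. C1qa (1.56, FDR 0.063), C1qc (1.56, FDR 0.051) and C2 (1.65, FDR 0.10) did not pass, whereas DESeq2 called all 9, as did edgeR without surrogate variables (2.22, 2.20 and 2.15 for these 3, FDR 0.016, 0.013 and 0.042). The C1qb call was lost in 20, the C4b call in 10 and the C3 call in 5 of the 31 fits that left out 1 mouse, and those of Cfb, C3ar1 and Serping1 in none. The count was 3 without rAAV-control mouse D743, without rAAV-OVA mouse D684 or BEC-B542 of 2 days, or without rAAV-OVA mouse D786 of 5 days. For C3, Cfb and C3ar1 the lower values of rAAV-OVA mice at 2 days enter these differences.

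Between later days no member's response was called different by edgeR. Between 5 and 8 days 0.179% of all genes passed, and of the members only C2 had an unadjusted p under 0.05 (-1.54, SE 0.71, FDR 0.67). Between 8 and 28 days 0% of genes passed, and C2 was again the member under 0.05 (2.07, SE 0.73, FDR 0.18). Between 5 and 28 days 6.18% of genes passed and C3 came nearest, with a difference of 3.49 (SE 1.25, FDR 0.075), and DESeq2 called C3 (3.51, FDR 0.033). The SEs of these differences, 0.52 to 1.46, were large beside the values, so similar responses at these days are not shown.

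The reference levels in rAAV-control mice moved with time. At 28 days C3, Cfb and C3ar1 were lower than at 2 days in rAAV-control mice, 3 of 9 members, against 2.82% of all genes. C3 averaged 145 ± 143 CPM (SD, n = 4) at 2 days and 7.22 ± 7.50 CPM at 28 days, a Log2FC of -3.87 (SE 0.98, FDR 0.025). Cfb averaged 19.1 ± 17.6 and 0.408 ± 0.386 CPM (-4.92, SE 1.02, FDR 0.0070), and C3ar1 36.1 ± 23.3 and 2.88 ± 0.44 CPM (-3.43, SE 0.63, FDR 0.0033). C1qa averaged 164 ± 29 and 55.2 ± 5.7 CPM (-1.28, SE 0.41, FDR 0.096). In 8 of the 9 members every rAAV-control mouse at 28 days was below every such mouse at 2 days, which was so for 8.83% of all genes, and C2 was the exception at 1.74 ± 0.62 and 1.84 ± 0.48 CPM. Marker sums were also lower at 28 days, with no overlap, going from 1858 to 5693 CPM to 503.8 to 845.9 CPM for reactive astrocytes, from 390.1 to 578.5 CPM to 203.6 to 222 CPM for myeloid cells and from 43.1 to 94.9 CPM to 21.5 to 31.1 CPM for monocytes, and their part was not tested. DESeq2 called 6 members lower, adding the 3 C1q chains, and edgeR without surrogate variables called 4, adding C1qc (-1.63, FDR 0.042). Without rAAV-control mouse D743, D696, D843, D705 or D706 the count by edgeR was 2. It was 5 without rAAV-control mouse D723 or D755 and 6 without D720 or D844.

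Levels of different genes were compared per kilobase of the longest coding transcript in GENCODE M21. In rAAV-OVA mice at 5 days the order of mean CPM per kilobase was C1qa (353), C1qb (323), C1qc (265), C4b (102.5), Cfb (79.5), Serping1 (76.2), C3 (45.7), C3ar1 (8.46) and C2 (4.71). The gap between Cfb and Serping1 was smaller than the SD of either. In rAAV-control mice at 28 days the C1q chains led again, at 39.8 to 53.0 CPM per kilobase, followed by C4b at 13.6 and Serping1 at 5.43, and Cfb was lowest at 0.148. C3 stood at 165 CPM per kilobase in rAAV-OVA mice at 28 days, above C4b at 128, yet the mouse-to-mouse SD of either gene spanned that gap.

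The ratios of the C1q chains varied far less between mice than the levels did. C1qa and C1qc averaged 474 and 338.5 CPM in rAAV-OVA mice at 28 days, and 55.2 and 47.9 CPM in rAAV-control mice of that day. The ratio of C1qa to C1qb CPM lay between 0.999 and 1.265, that of C1qa to C1qc between 1.06 and 1.42 and that of C1qb to C1qc between 0.922 and 1.15 over all 31 mice, while C1qa itself ranged from 48.5 to 783 CPM. Over the 31 mice Pearson's r of log2 CPM between chains was 0.997 to 0.998. These points share libraries and the study's groups, so r is a description. After each group's mean was removed, r between chains was still 0.995 to 0.997. Among all 36 pairs of members r ran from 0.57 (C2 with C3ar1) to 0.998 (C1qb with C1qc), with a median of 0.92.

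The genes whose pattern over the 31 mice was most like that of each member, other members left out, differed by member. For C1qa they were Laptm5 (r = 0.987), Pld4 (0.986) and Ctsz (0.984), and for C1qb and C1qc they were Pld4, Unc93b1 and Laptm5 (0.984 to 0.991). Laptm5 encodes a lysosomal protein of blood-lineage cells. For C4b they were H2-D1 (0.981), Lgals3bp (0.979) and H2-K1 (0.976), for Serping1 they were Tapbp (0.985), Trim25 (0.981) and Tor3a (0.9796), and H2-D1, H2-K1 and Tapbp act in the display of peptides on MHC class I. For C3 they were Rac2 (0.977), Slc7a7 (0.975) and Cd48 (0.9703), for C3ar1 Adgre1 (0.975), which encodes the macrophage marker F4/80, Cd72 (0.964) and Aoah (0.961). For Cfb they were Gm21188 (0.974), Gzma (0.973), a granule protease of cytotoxic lymphocytes, and Tnfaip2 (0.972), and for C2 they were Jaml (0.934), Tlr12 (0.930) and P2ry14 (0.927).

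Marker genes of immune cells moved with the members. In bulk tissue a change in the number of cells of a type and a change in RNA per cell cannot be told apart. The 7 genes listed for myeloid cells were all called increased at 5, 8 and 28 days, and at 5 days they summed to 906 to 1059 CPM in rAAV-OVA mice and 245 to 487 CPM in rAAV-control mice. Of 8 monocyte genes 6 were increased at 5 days, summing to 227 to 390 against 19.6 to 29.01 CPM, and 6 of 8 at 28 days, summing to 37.8 to 150.3 against 21.5 to 31.1 CPM. Of 9 genes of homeostatic microglia 2 were increased and 1 decreased at 5 days, none was called at 8 days, and 6 were increased at 28 days. Of 8 reactive astrocyte genes 5, 3 and 6 were increased at 5, 8 and 28 days. Of the 8 general astrocyte genes none was increased, and 2 were decreased at 5 days. Cd8a was at most 1.35 CPM in rAAV-control mice other than D720, 32.02 to 46.2 CPM in rAAV-OVA mice at 5 days and 52.0 to 163 CPM at 8 days. Of 10 T cell markers 3 were measured, of which 2 were increased at 5, 8 and 28 days. Of 5 B cell markers only Cd79b was measured, at 0.134 to 3.08 CPM over all mice. The part of these cells in the complement values was not tested.

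C1qa was set against these lists mouse by mouse. Relative to the mean log2 CPM of the 7 myeloid genes, C1qa differed between rAAV-OVA and rAAV-control mice by 0.28, -0.24, -0.29 and 0.19 at 2, 5, 8 and 28 days, and the groups overlapped except on the last day. C1qb and C1qc differed by -0.02 and -0.06 at 28 days, with overlapping groups. Relative to the 9 genes of homeostatic microglia C1qa differed by -0.34, 1.59, 1.20 and 1.76 at 2, 5, 8 and 28 days. The groups overlapped at 2 and 8 days and not at 5 and 28 days. C3ar1 relative to the myeloid genes differed by -0.92, 0.55, -0.27 and 0.40, and again its groups overlapped except on the last day. Over the 31 mice r with the myeloid mean was 0.985 to 0.988 for the C1q chains and 0.956 for C3. It was 0.950 for C4b, 0.947 for Cfb, 0.940 for Serping1, 0.902 for C3ar1 and 0.814 for C2. The r with the reactive astrocyte mean was 0.865 to 0.8875 for the C1q chains and 0.898 for C3. It was 0.857 for C4b, 0.891 for Cfb, 0.809 for Serping1, 0.960 for C3ar1 and 0.555 for C2. With group means removed the order was the other way for C3, Cfb and C3ar1. The myeloid and reactive astrocyte r were then 0.891 and 0.946 for C3, 0.816 and 0.874 for Cfb, and 0.923 and 0.908 for C3ar1.

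**Figure D3:**
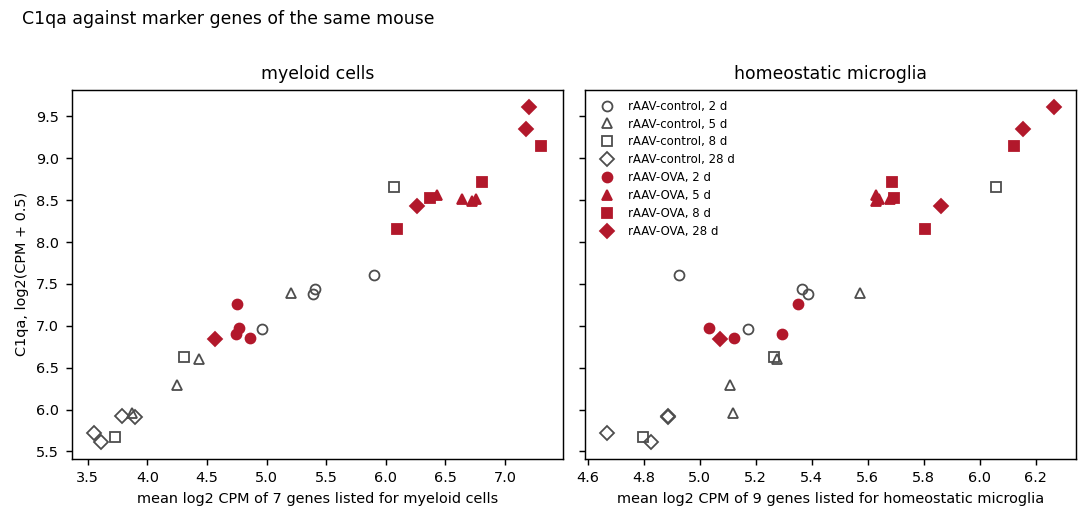
C1qa as log2(CPM + 0.5) on the vertical axis against the mean log2 CPM of 7 myeloid genes (left) and 9 homeostatic microglial genes (right) in the same mouse, for 31 mice. Open grey symbols are rAAV-control and filled red symbols rAAV-OVA mice, with a shape for each day; on the left all mice lie near a line, and on the right the rAAV-OVA mice of 5 days sit above the rAAV-control mice of the same day, a difference of 1.59 relative to the markers.

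Of 55 other complement genes listed, 27 were in the table. Not among its rows were the genes of the terminal pathway, the mannose-binding lectins, factor D and factor I. None of the 27 was called at 2 days by edgeR or DESeq2, with an unadjusted p under 0.05 in 5. At 5, 8 and 28 days 8, 7 and 12 of the 27 were increased, against 9.56%, 9.36% and 12.7% of all genes. At 28 days 1 was decreased. The median Log2FC of the 27 at these 3 days was 0.11, -0.03 and 0.81, against -0.01, -0.03 and 0.01 over all genes. The shares of all genes decreased or with an unadjusted p under 0.05 were not counted.

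All 3 measured C1 protease genes were increased at 5, 8 and 28 days. C1s1, which encodes C1s, was 25.1, 25.01, 26.9 and 19.3 CPM in rAAV-OVA mice and 0.716, 3.11, 1.26 and 2.48 CPM in rAAV-control mice at 5 days (Log2FC 2.71, SE 0.64, FDR 0.0030), and its Log2FC was 2.99 at 8 days (FDR 0.0037) and 4.76 at 28 days (SE 0.73, FDR 0.00014). C1ra, which encodes C1r, gave 3.19, 2.20 and 3.14 at the 3 days, with overlapping groups and no call at 8 days without surrogate variables (1.80, FDR 0.080), and the C1r-like gene C1rl gave 2.51, 2.32 and 1.36. The protease genes thus rose together with the C1q chains and with their inhibitor Serping1. Cfp, which encodes properdin, the stabilizer of the alternative convertase, was increased at 5 days (1.87, FDR 0.036) and 8 days (2.71, FDR 0.010) and not called at 28 days (1.65, FDR 0.060), where it passed without surrogate variables (2.11, FDR 0.0074).

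Among 6 receptor genes 4, 3 and 5 were increased at 5, 8 and 28 days. Itgax, the alpha chain of complement receptor 4, gave a Log2FC of 3.05 at 5 days (FDR 0.0019), 2.36 at 8 days (FDR 0.019) and 4.62 at 28 days (FDR 0.00024). At 8 days its groups overlapped and the call was lost without surrogate variables (1.72, FDR 0.15). Itgb2, the beta chain that complement receptors 3 and 4 share, gave 2.67, 2.68 and 2.72 at these days. C5ar1, a receptor of C5a, gave 2.58, 2.18 and 1.47, and Cd93 gave 0.97 at 5 days, -0.06 at 8 days (FDR 0.91) and 1.29 at 28 days. Itgam, the alpha chain of complement receptor 3, named after its values were seen, was called at 28 days (0.86, FDR 0.047). It was not called at 5 days (0.85, FDR 0.051), where it passed without surrogate variables (1.28, FDR 0.0065). The 7 genes listed for myeloid cells were all increased at 5, 8 and 28 days, and the part of these cells in the receptor values was not tested.

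Of 11 membrane regulators none was increased at any day, although Cr1l at 28 days passed without surrogate variables (0.74, FDR 0.00095, against 0.52, FDR 0.0068, with them), and their median Log2FC was -0.08, -0.20 and -0.32 at 5, 8 and 28 days. Csmd2, a neuronal membrane protein with complement control domains, was decreased at 28 days, at 28.8, 39.99, 16.7 and 34.2 CPM in rAAV-OVA mice and 56.2, 49.8, 49.8 and 48.6 CPM in rAAV-control mice (-0.67, SE 0.21, FDR 0.015). Of 8 genes listed as neuronal 3 were called decreased at that day, and their part in the Csmd2 value was not tested. Clu, which encodes the soluble regulator clusterin, was 2121, 1726, 2979 and 1373 CPM in rAAV-OVA mice and 870, 966, 989 and 1129 CPM in rAAV-control mice at 28 days (0.93, SE 0.19, FDR 0.0011), whereas at 5 days it was lower in every rAAV-OVA mouse without passing (-0.44, FDR 0.087).

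Vtn, which encodes vitronectin, was increased at 28 days with values that mouse D845 led. It was 72.1, 63.8, 209 and 73.7 CPM against 49.8, 52.2, 49.2 and 44.0 CPM (Log2FC 1.18, FDR 0.0042). At 5 days it was not called (-0.64, FDR 0.094) and was decreased without surrogate variables (-0.70, FDR 0.040). Colec12, a collectin of the lectin pathway list, was 69.7 CPM in D845 and 10.1 to 13.8 CPM in the other 3 rAAV-OVA mice. It was 7.31 to 13.1 CPM in rAAV-control mice at 28 days, so the groups overlapped (Log2FC 1.54, FDR 0.019). The raised fibroblast and meningeal markers of mouse D845 were given above, and their part was not tested.

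**Figure D4:**
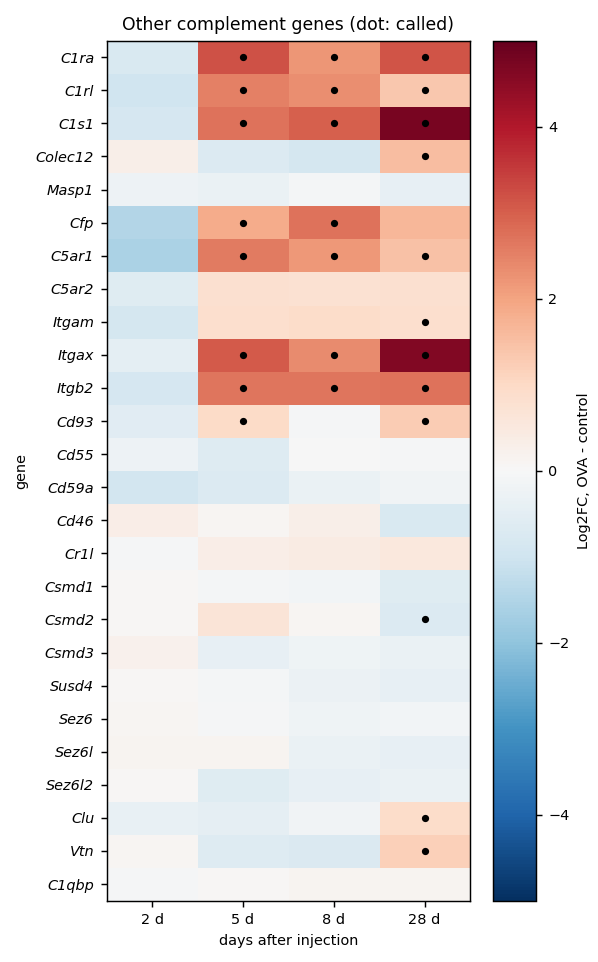
Log2FC of rAAV-OVA minus rAAV-control mice (colour scale from -5 to 5) for the other complement genes, in rows, at 4 days, in columns. A dot marks a call; the C1 proteases and the receptors Itgax, Itgb2 and C5ar1 carry dots at 5, 8 and 28 days, and Clu and Vtn at 28 days alone.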

How the data were processed

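Hippocampal RNA of 31 mice was measured by poly(A) RNA sequencing. The authors trimmed reads, quantified them with Salmon 1.8.0 against GENCODE M29, summarized transcripts to genes and deposited estimated counts, written as whole numbers, keeping genes that reached 15 counts in 15 or more mice. The 2 deposited tables held the same values, and 0 columns were left unused. The authors tested these counts with DESeq2 1.36.0. The quantification by probability splits reads between near-identical genes.

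Here, edgeR 4.0.16 (R 4.3.3) fitted all 15648 genes and all 31 mice with 8 groups, TMM scaling and 2 surrogate variables from sva 3.50.0 by quasi-likelihood tests, and a call needed an FDR up to 0.05 with a Log2FC of 0.66 or more in size. CPM were computed from TMM-scaled libraries, and log2 CPM with a prior count of 2. The script was tested on simulated data. Alternatives were DESeq2 1.42.0 with or without ashr, other scaling, no surrogate variables, the batch label, a stricter count filter, the mice of a day or batch alone, and each mouse left out. Named genes were the members, in each role of a list of other complement genes up to 4 called genes with the largest absolute Log2FC, genes sharing reads or a locus with a member, and for each member the 3 genes with the highest r. The members, lists and tests were chosen with earlier results of these data known. Mice named were described after their values were seen. The labels do not tell litters apart. The p-values rest on the spread between these mice, pooled over the 8 groups and after the 2 surrogate variables. Among the other complement genes called, 1 is counted but not reported here.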

Additional observations from a re-analysis of the deposited data

Results flagged for a closer look

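In 63 groups of 4 mice (the 9 members in each group of that size), 1 mouse stood outside its group by Dixon's criterion, which chance meets in about 1 group in 20. It was rAAV-control mouse D743 at 2 days, with C3ar1 at 70.7 CPM against 19.5 to 27.3 CPM in the other 3, a gap of 0.847 of the group's range. The same mouse held the highest C3 and Cfb of its group and the low Ddx3y.

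The response differed between 2 and 5 days, by the test of the difference itself, in 6 members: Cfb by 7.05, C3 by 4.47, C3ar1 by 3.26, Serping1 by 2.71, C4b by 2.28 and C1qb by 1.61 on the log2 scale, with the SE and FDR of each given in the report. The C1qb call was lost in 20, the C4b call in 10 and the C3 call in 5 of 31 fits that left out 1 mouse.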

How the results depend on the processing

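No member value reversed its direction while called in any alternative, and all 9 members were increased at 28 days in each except batch 2 alone, where 0 were, and the 15-count filter, which removed Cfb and left 8. With 36 member values at 2 to 28 days, DESeq2 size factors and dropping the limit on Log2FC changed no call, DESeq2 changed 1 and the fit without surrogate variables 5. Members increased at 8 days were 6 with surrogate variables, 2 without them, 1 with the batch label, 2 with 15 counts required in every mouse and 0 in the mice of the day alone. Other complement genes increased at 8 days were 7, 4 with 15 counts in every mouse and 0 in the mice of the day alone. At 28 days 12 of the other complement genes were increased, 7 in batch 1 alone and 0 in batch 2 alone. Members whose response differed between 5 and 28 days were 0, and 1 by DESeq2, 1 with surrogate variables from variance-stabilized values and 1 without mice D720, D755 and D844, the last 2 settings being chosen after seeing the data. Members lower in rAAV-control mice at 28 than at 2 days were 3, and 6 by DESeq2 with or without ashr, 6 with variance-stabilized values and 8 without the 3 mice. Without those mice 9, 8 and 9 members were increased at 5, 8 and 28 days. Leaving out each mouse in turn gave 4 to 9 members increased at 5 days, 1 to 8 at 8 days and 9 at 28 days, 1 to 9 other complement genes at 8 days and 5 to 15 at 28 days (5 without rAAV-OVA mouse BEC-B542), 3 to 9 members with different responses between 2 and 5 days, 0 to 1 between 5 and 28 days (1 without D684, D723 or D722) and 2 to 6 in rAAV-control mice. Other complement genes at 8 days were 4 without BEC-B541 and 1 without D722. The cause of these shifts was not tested. With 2 to 4 mice a group and few Cfb counts in rAAV-control mice, fold changes of Cfb are imprecise. No paired analysis was possible because the mice of the groups share no number or animal in the labels.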
